A study of Homo sapiens with 4 samples.

Results

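The genes described here are the nuclear genes of oxidative phosphorylation, read from the symbols NDUFA, NDUFB, NDUFC, NDUFS and NDUFV followed by a digit, SDHA to SDHD, and those starting with UQCR, COX4 to COX8 or ATP5. Of 26255 gene symbols, 93 matched and 81 averaged 1 FPKM or more across the 4 libraries, out of 12260 genes that reached that mean. FPKM is fragments per kilobase of transcript and per 1000000 mapped fragments, so levels can be compared between genes. Of the 81 members, 74 are structural subunits and 7 are other transcripts that carry such a symbol. These are the readthroughs NDUFC2-KCTD14 and ATP5J2-PTCD1, the antisense gene NDUFA6-AS1, the pseudogene ATP5EP2, the supercomplex factor COX7A2L, and ATP5S and ATP5SL, which are named after the ATP synthase but are not part of it.

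RNA was sequenced from TOV21G cells, a human line labelled as ovarian clear cell carcinoma, after poly(A) selection. A control culture received no drugs, and its time is not given in the labels. The other cultures were treated for 48 h with As2O3 at 1 µM (arsenic trioxide, a thiol-reactive drug), with GSK458 at 0.1 µM (an inhibitor of PI3K and mTOR), or with both at these doses. There was 1 library per group, so replicate error is unknown, no test is possible, and each value describes these libraries. In the order control, As2O3, GSK458 and both drugs, PAX8, a transcription factor found in ovarian carcinomas, stood at 96.8, 149, 83.6 and 88.7 FPKM. EPCAM, an epithelial surface protein, stood low at 0.608 to 1.71 FPKM. Of other cell types, the immune genes PTPRC and CD3E were listed at 0 in all libraries, CD14 of monocytes reached at most 0.163 FPKM, PECAM1 of endothelial cells 0.0311 and the fibroblast collagens COL1A1 and COL1A2 4.24 and 1.45. A listed 0 need not mean absence, since SLC25A6, an ADP/ATP carrier used by most cells, was also listed at 0 throughout. The absolute depth is unknown. The commonest ratio between low values of a gene was held by 350 of 821, 354 of 840 and 362 of 796 such genes. If FPKM was scaled by mapped fragments alone, which was not checked, it corresponds to depths of 96.3%, 109% and 85.8% of the control's. These are for As2O3, GSK458 and both drugs.

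Oxidative phosphorylation is the process by which mitochondria turn the energy of NADH and succinate into ATP. Complexes I and II pass electrons to ubiquinone, complex III passes them on to cytochrome c and complex IV to oxygen, and complexes I, III and IV pump protons across the inner membrane. Complex V, the ATP synthase, lets the protons flow back and makes ATP. Most subunits are encoded in the nucleus and imported, while a few catalytic ones are encoded in mitochondrial DNA and are not analysed here.

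Taken as a sum, messages of the respiratory chain and ATP synthase were lower with GSK458, lower again with both drugs, and slightly lower with As2O3. The summed level of the 81 members was 17743 FPKM without drugs, 15974 under As2O3, 13746 under GSK458 and 12501 under both, or 90.0%, 77.5% and 70.5% of the control. These sums made up 3.26%, 2.77%, 2.33% and 2.21% of all FPKM in each library. For the ATP synthase alone, the sum was 84.4% of the control under As2O3, 81.6% under GSK458 and 71.7% under both. In bulk RNA, fewer cells with a message and less of it per cell cannot be told apart.

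Gene by gene, differences are of log2(FPKM + 1), which understates differences of low genes. The median difference from the control was −0.16 under As2O3, −0.40 under GSK458 and −0.52 under their combination, beside medians over all genes tested of 0.01, −0.01 and −0.01. A member was counted as lower where FPKM + 1 was at least 20% below the reference library, and as higher where it was at least 25% above. With As2O3, 14 of the 81 members were lower (17.3%), against 17.7% of all genes tested, and 2 were higher, against 19.2%. With libraries rescaled to one sum the As2O3 count of lower members was 24 (29.6%), against 24.7% of all genes on the same scale. In the values as deposited 63 members had a difference below 0, against 48.6% of all genes. With GSK458, 48 members were lower (59.3%), against 22.1% of all genes, and 4 were higher, against 21.6%. With both drugs, 57 were lower (70.4%), against 24.1%, and 0 were higher, against 22.2%. At a threshold of 1.5-fold, 4, 17 and 31 members were lower in the same order, against 6.45%, 10.3% and 11.7% of all genes. With any difference counted, 70 members stood below the control with GSK458 and 74 with both drugs, against 50.5% and 51.1% of all genes. Genes that work together need not vary independently between cultures.

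Most members had the same lowest and highest library. In 62 of 81 the combination library was the lowest (76.5%), against 22.3% of all genes tested, and in 56 the control was the highest (69.1%), against 27.6%. In 56 members the GSK458 and combination values both lay below both the control and As2O3 values, against 30.6% of all genes. SDHD, UQCRB and COX7A2L were the 3 members above the control in all treated libraries (3.7%), against 28.3% of all genes tested. With each library rescaled to an FPKM sum of 1000000, UQCRB and COX7A2L were below the control with As2O3, and SDHD and COX7A2L with both drugs. Upper-quartile scaling also put UQCRB and COX7A2L below it with As2O3, and median-of-ratios scaling COX7A2L with both drugs.

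**Figure D1:**
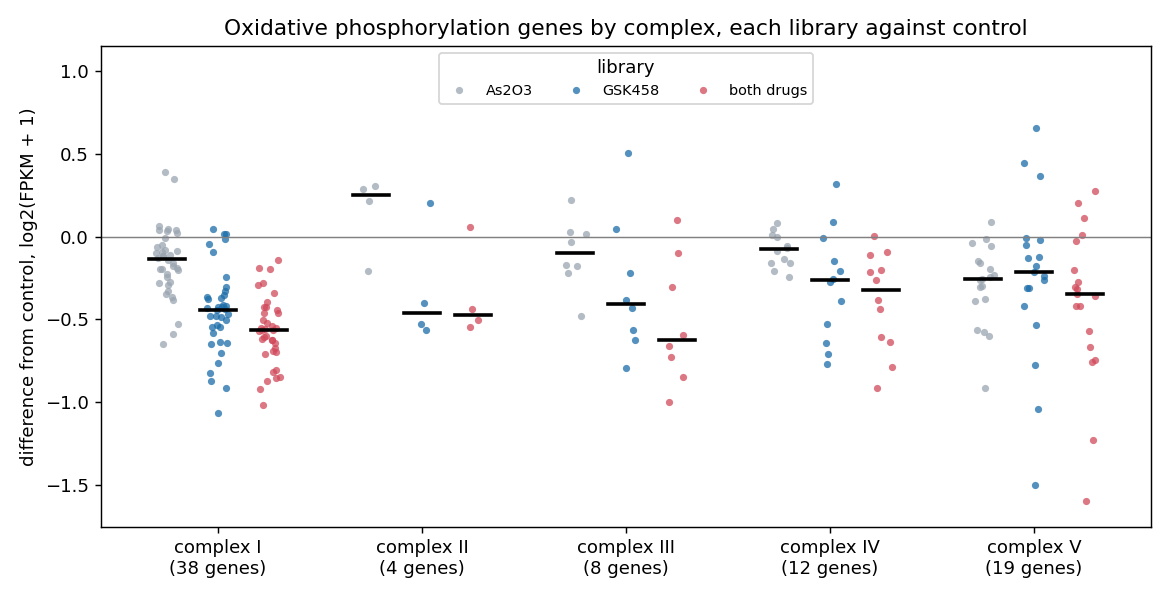
Difference of each of the 81 genes from the control on the log2(FPKM + 1) scale (y axis), by complex (x axis) and library (grey As2O3, blue GSK458, red both drugs). Each point is 1 gene and black bars are medians. In complex I the medians were −0.14, −0.44 and −0.56, and the points of complex V spread most widely.

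Complex I, the NADH dehydrogenase, is the largest of the 5 complexes and supplied 38 members. Relative to the control, its summed level was 89.5% under As2O3, 69.9% under GSK458 and 64.6% under the combination. With both drugs all 38 lay below the control and 33 were at least 20% lower. These 33 are 86.8% of the complex, against 24.1% of all genes tested. With GSK458 there were 30 (78.9%, against 22.1%), and with As2O3 7 (18.4%, against 17.7%), a share near the background.

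Among the proteins of the Q module, where ubiquinone is reduced, NDUFS7 stood lowest against the control. This subunit holds the last iron-sulfur cluster before ubiquinone, and its gene stood at 115, 103, 54.6 and 56.5 FPKM in the order control, As2O3, GSK458 and both drugs, which is kept below. The GSK458 and combination values were less than those of the other libraries, with log2 differences from the control of −1.07 and −1.02. NDUFS8, which carries a further pair of clusters, stood at 198, 183, 127 and 129.8 FPKM. Its As2O3 value was close to the control. NDUFA9, an accessory subunit near the ubiquinone site, had values of 67.4, 54.95, 39.2 and 36.9 FPKM, and NDUFA6 had 86.7, 79.9, 55.4 and 53.3 FPKM. NDUFA7 differed from these in being highest with As2O3, at 79.6, 101, 66.97 and 49.6 FPKM. NDUFA5 was almost level at 11.4, 9.84, 11.5 and 10.2 FPKM.

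The N module takes electrons from NADH. NDUFV1, which binds NADH and the flavin cofactor, stood at 112, 116, 80.3 and 75.4 FPKM, and NDUFS1, which holds several iron-sulfur clusters of the chain, at 41.7, 40.2, 27.5 and 26.7 FPKM. Both were near the control with As2O3 and lower in the libraries with GSK458. The zinc-binding accessory subunit NDUFS6 stood at 168, 139, 94.6 and 92.95 FPKM and NDUFV3 at 28.00, 28.9, 20.5 and 17.6 FPKM. NDUFS4, an accessory subunit whose loss causes the childhood disorder Leigh syndrome, was an exception at 111, 114, 110.3 and 97.2 FPKM, with only the combination value apart from the others.

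The membrane arm pumps protons, and its nuclear subunits are accessory proteins that surround the mitochondrially encoded core. NDUFB8 stood at 312, 275, 165 and 164 FPKM and NDUFB4 at 428, 448, 234 and 234 FPKM, and in both genes the GSK458 and combination values were almost equal. NDUFB2 (234, 149, 149 and 132 FPKM) and NDUFB1 (169, 112, 132 and 103 FPKM) were the complex I genes lowest with As2O3 alone, at −0.65 and −0.59. NDUFA3 stood at 279, 229.6, 171 and 159.6 FPKM and NDUFB9 at 249, 217, 171 and 161 FPKM. NDUFA13, also known as the cell death factor GRIM-19, stood at 584, 538, 434 and 386 FPKM and was the most abundant complex I message in the control. NDUFS5 stood at 391, 357, 282 and 254 FPKM. NDUFA10 had the smallest difference of this arm with both drugs (−0.19), at 20.5, 19.1, 20.7 and 17.8 FPKM.

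By module, medians with GSK458 were −0.46 for the 8 genes of the N module, −0.59 for the 8 of the Q module and −0.42 for the 20 of the membrane arm. With both drugs they were −0.56, −0.68 and −0.56, and with As2O3 −0.06, −0.14 and −0.19. The ranges overlapped in every case. NDUFC2 and the readthrough NDUFC2-KCTD14 share reads, so their values (12.3, 9.36, 9.03 and 9.17 FPKM and 15.1, 11.8, 12.04 and 10.9 FPKM) are uncertain. A further 14 complex I genes had log2 differences between −0.57 (NDUFB3) and −0.29 (NDUFB5) with both drugs. The antisense gene NDUFA6-AS1 stood at 3.36, 4.72, 3.5 and 2.59 FPKM, and whether the authors' counting used strand is not stated in the labels or notes.

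Complex II, succinate dehydrogenase, belongs to both the citrate cycle and the electron transport chain and is encoded wholly in the nucleus. Its summed level was higher with As2O3, at 116% of the control, whereas those of the other complexes were between 84.4% and 96.5%. SDHA, the flavoprotein that oxidises succinate, stood at 82.2, 102, 55.2 and 57.6 FPKM, and SDHB, which carries its iron-sulfur clusters, at 88.8, 109, 61.4 and 60.6 FPKM. Each was highest with As2O3 and lower than the control in both libraries with GSK458. The membrane anchors differed from each other, with SDHC at 43.4, 37.4, 32.7 and 31.9 FPKM and SDHD at 64.1, 74.7, 73.96 and 66.8 FPKM. With As2O3, 0 of the 4 passed either threshold against the control. Set against As2O3 alone, SDHA and SDHB were lower with both drugs by log2 differences of −0.81 and −0.83. In this comparison 43 of the 81 members were lower by at least 20%, against 24.5% of all genes tested, and 2 were higher, against 21.2%. At 1.5-fold, 15 were lower, against 11.6%.

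Complex III passes electrons from ubiquinol to cytochrome c. Its 8 members had medians of −0.10, −0.41 and −0.63 under As2O3, GSK458 and the combination. UQCRQ, a small subunit at the ubiquinone site, stood at 69.7, 49.6, 39.8 and 34.4 FPKM and was lower in each treated library. UQCRC1, a core protein on the matrix side, stood at 213, 208, 137 and 118 FPKM, while its partner UQCRC2 stood at 96.5, 113, 82.8 and 77.9 FPKM and was highest with As2O3. The Rieske iron-sulfur protein UQCRFS1, through which electrons leave ubiquinol, stood at 103, 90.7, 78.7 and 67.9 FPKM. The small subunits UQCR10 (105, 93.2, 70.9 and 63.2 FPKM) and UQCR11 (86.04, 73.6, 63.6 and 53.97 FPKM) decreased in the same order, from the control through As2O3 and GSK458 to both drugs.

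Other complex III genes went another way. UQCRB, which binds next to ubiquinone, stood at 41.2, 41.95, 58.8 and 44.3 FPKM, so that its GSK458 value alone stood apart from the rest, with a log2 difference of 0.50. UQCRH, the hinge protein that docks cytochrome c, was nearly level at 422, 426, 435 and 393 FPKM. Its difference with GSK458 was 0.04 and turned to −0.07 when all libraries were rescaled to one sum.

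Complex IV, cytochrome c oxidase, reduces oxygen to water. Its 12 members include NDUFA4, which carries a complex I name but sits in complex IV. Medians were −0.08 under As2O3, −0.26 under GSK458 and −0.32 under the combination. With GSK458 the differences ran from −0.77 (COX8A) to 0.32 (COX7A2L) without a clear gap, and the genes are described from the lowest up. COX8A, the smallest subunit, stood at 567, 508, 331 and 300.1 FPKM, COX6A1 at 752, 674, 459 and 436 FPKM, COX5B, a zinc-binding subunit, at 565, 539, 362 and 371 FPKM, and COX7B at 474, 456, 329 and 305 FPKM. In each of these 4 the values with GSK458 and with both drugs were below the other pair. COX7A2 stood at 216, 228, 165 and 159 FPKM, NDUFA4 at 70.4, 59.2, 58.8 and 53.8 FPKM and COX5A at 143, 124, 118 and 124 FPKM. With GSK458 their differences lay between those of the 4 genes above and those of the genes in the next paragraph.

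The upper end of this range with GSK458 included the most abundant message of all 81, COX7C, at 938, 882, 995 and 868 FPKM. COX4I1, the subunit through which ATP inhibits the enzyme, stood at 595, 594, 538 and 517 FPKM, COX6C at 74.99, 75.5, 74.4 and 70.3 FPKM, and COX6B1, which joins the oxidase dimer, at 454, 413, 393 and 379 FPKM. COX7A2L, which helps to build supercomplexes of III and IV, stood at 105, 108, 130.4 and 105 FPKM, highest with GSK458. The small difference of COX7C with GSK458 (0.09) turned to −0.03 with libraries rescaled to a sum of 1000000.

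Isoforms typical of other tissues were listed at or near 0, with the limit on zeros given above. COX4I2, COX6A2 and COX7B2 were listed at 0 in all libraries, and COX6B2, COX7A1 and COX8C reached at most 0.227 FPKM. NDUFA4L2, a paralog of NDUFA4 that hypoxia induces, stood at 0.146, 0.151, 0.134 and 0.085 FPKM. Of the 12 matching symbols below the mean of 1 FPKM, 5 were at 0 throughout. The symbols just outside the limit were NDUFV2-AS1 (mean 0.361 FPKM) and NDUFB2-AS1 (0.277), and those just inside were ATP5J2-PTCD1 (mean 2.65 FPKM) and NDUFA6-AS1 (3.54).

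Complex V, the ATP synthase, had similar medians with As2O3 and with GSK458, −0.26 and −0.22, and −0.34 with both drugs. Its 19 members include 4 that are not subunits (ATP5J2-PTCD1, ATP5EP2, ATP5S and ATP5SL), and over the 15 subunits the medians were −0.26, −0.26 and −0.42. The 5 genes of the catalytic F1 head lay below the control in each treated library, except that ATP5D with GSK458 lay above it under upper-quartile scaling. ATP5B, the catalytic beta subunit, stood at 774, 699, 534 and 487 FPKM, and ATP5A1, its alpha partner, at 523, 446, 481 and 412 FPKM. In ATP5B the GSK458 library was well below the As2O3 library, and in ATP5A1 the As2O3 library was the lower. ATP5D, the delta subunit of the central stalk, stood at 206, 159, 203 and 165 FPKM, with low values only where As2O3 was present, and ATP5E at 768, 648, 702 and 623 FPKM. The gamma shaft ATP5C1 stood at 326, 313, 262 and 243 FPKM.

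In the part that lies in and near the membrane, ATP5J2, the f subunit, stood at 496, 336, 241 and 212 FPKM, with log2 differences of −0.56, −1.04 and −1.23. ATP5I, the e subunit that helps to pair ATP synthases, stood at 532, 445, 397 and 315 FPKM. The stalk genes ATP5F1, ATP5H, ATP5J and ATP5O and the g subunit ATP5L had smaller differences with both drugs, between −0.57 and −0.20. The readthrough ATP5J2-PTCD1 (2.28, 1.2, 4.15 and 2.96 FPKM) and the pseudogene ATP5EP2 (9.07, 8.97, 12.7 and 10.6 FPKM) were higher with GSK458, and since they share sequence with ATP5J2 and ATP5E their values are uncertain. ATP5S stood at 4.77, 2.06, 4.74 and 4.8 FPKM, with the As2O3 library apart, and ATP5SL at 58.7, 62.3, 50.3 and 57.6 FPKM.

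Subunit c forms the rotating ring of the ATP synthase, and in humans 3 genes encode the same mature protein behind different import sequences. ATP5G1 stood at 147, 96.3, 51.3 and 47.9 FPKM. It had the lowest log2 differences of all members with GSK458 and with both drugs, −1.50 and −1.59, and −0.60 with As2O3. ATP5G3 stood at 112, 90.7, 64.7 and 66.1 FPKM, also lower in the libraries with GSK458. ATP5G2 went the other way, at 318, 309, 410.1 and 344 FPKM, and was highest with GSK458 at a log2 difference of 0.37. The summed level of the 3 genes was 576, 496, 526 and 458 FPKM, and the share of ATP5G2 in it was 55.2%, 62.3%, 78.0% and 75.1%. That of ATP5G1 was 25.4%, 19.4%, 9.74% and 10.5%. The share within a library does not depend on its scaling.

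**Figure D2:**
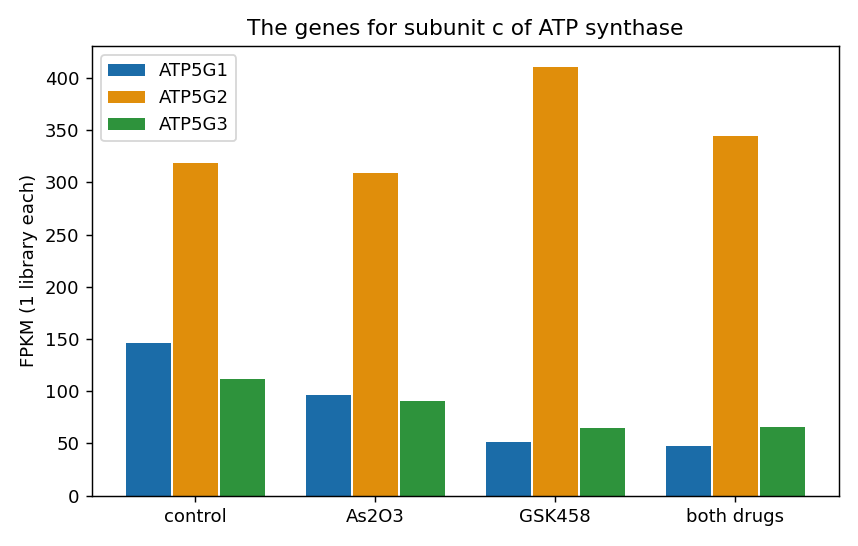
FPKM (y axis) of ATP5G1 (blue), ATP5G2 (orange) and ATP5G3 (green), the genes for subunit c, in the 4 libraries (x axis). Each bar is 1 library, without error. ATP5G1 went from 147 FPKM in the control to 51.3 FPKM with GSK458, while ATP5G2 went from 318 to 410.1 FPKM.

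The difference seen with GSK458 can be read again from libraries that both contain As2O3, a pair that shares no library with the first. The median was −0.40 without As2O3 and −0.38 with it. Of the 81 members 68 were lower in both pairs (84.0%), against 37.0% of all genes tested, and 39 were at least 20% lower in both (48.1%), against 13.6%. Those higher in both numbered 5 (6.17%), against 34.2% of all genes. They were ATP5G2, ATP5EP2, ATP5J2-PTCD1, UQCRB and NDUFA5, the last not with libraries rescaled to one sum. Across the 81 genes, which share their libraries and are not replicates, Pearson's r of the 2 differences was 0.745, beside 0.617 across all genes. By complex, medians without and with As2O3 were −0.44 and −0.43 for complex I, −0.46 and −0.52 for II, −0.41 and −0.48 for III, −0.26 and −0.17 for IV, and −0.22 and −0.11 for V. With upper-quartile scaling, which moves the median of all genes in the second pair from −0.02 to 0.09, the second median of the 19 complex V members turned to 0.01. Over the 15 subunits alone this median was −0.18, and −0.06 with upper-quartile scaling.

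**Figure D3:**
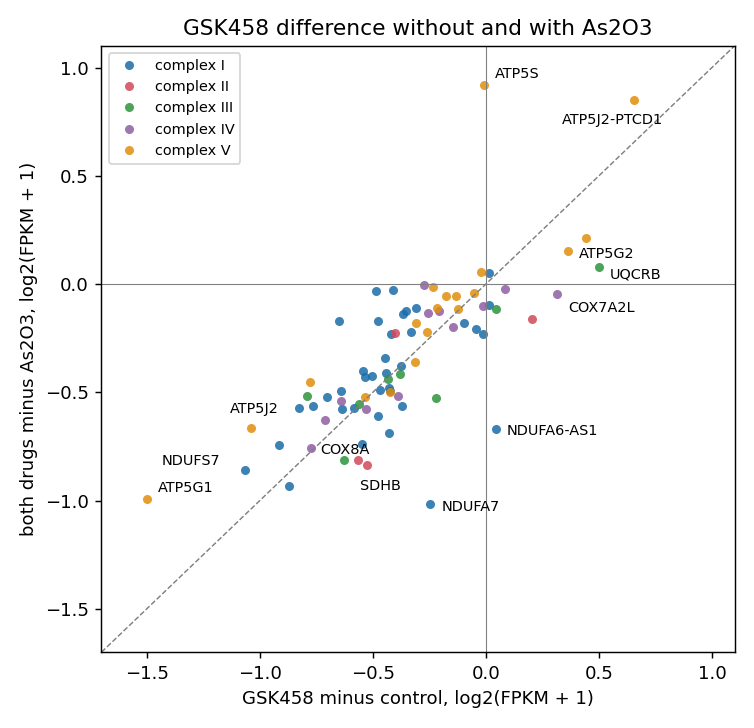
Difference of each of the 81 genes on the log2(FPKM + 1) scale between GSK458 and control (x axis) and between both drugs and As2O3 (y axis), coloured by complex; the dashed line marks equal differences. Most points, 68 of 81, lie in the lower left, with ATP5G1 farthest left, and ATP5S and ATP5J2-PTCD1 stand at the top.

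The As2O3 difference was small in both of its pairs. Its median was −0.16 without GSK458 and −0.12 with it, and 54 members were lower in both (66.7%), against 28.3% of all genes. By at least 20%, 7 members were lower when As2O3 was added to GSK458, against 6.81% of all genes, and 0 were at least 25% higher, against 6.99%. At 1.5-fold, 0 were lower, against 1.53%. NDUFB1 and ATP5J2-PTCD1 were the 2 members at least 20% lower in both pairs, where 2.85% of all genes were. Across the 81 genes, r of the 2 differences was 0.0375, beside 0.231 across all genes. Rescaling each library to a sum of 1000000 put the median of all genes at −0.07, −0.11 and −0.07 against the control for As2O3, GSK458 and both drugs.

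Subunits and carriers whose symbols the rule does not match showed both behaviours. ATPIF1, the inhibitor that stops the ATP synthase from running backwards, stood at 595, 428, 301 and 238 FPKM. CYC1, the cytochrome c1 of complex III, stood at 119, 128, 73.7 and 65.6 FPKM, CYCS, the mobile carrier cytochrome c, at 34.2, 28.5, 18.9 and 18.5 FPKM, and NDUFAB1, the acyl carrier protein of complex I, at 58.9, 59.9, 36.3 and 36.4 FPKM. These 4 were lower in both libraries with GSK458. The phosphate carrier SLC25A3 (448, 468, 495 and 459.9 FPKM) and USMG5, a small ATP synthase subunit (556, 553, 620.0 and 570.0 FPKM), were not. Of the 9 genes of this list that were measured, 5 were at least 20% lower with GSK458 (55.6%, against 22.1% of all genes) and 0 higher (against 21.6%).

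Assembly factors, which insert cofactors and join the subunits, were lower by less. Of 50 measured, 17 were at least 20% lower with GSK458 (34%, against 22.1% of all genes) and 0 higher (against 21.6%), with a median of −0.18. With both drugs 23 were lower (46%, against 24.1%) and 1 higher (against 22.2%), with a median of −0.30. FOXRED1, a complex I assembly factor, stood at 19.97, 12.1, 7.81 and 9.0 FPKM, and UQCC2, needed for cytochrome b of complex III, at 30.7, 33.8, 15.7 and 15.7 FPKM. SDHAF3, which serves SDHB, stood at 7.09, 6.28, 4.46 and 3.3 FPKM. COX17, the copper chaperone of complex IV, stood at 49.4, 70.6, 36.5 and 38.6 FPKM and was highest with As2O3. NDUFAF6 (3.01, 2.89, 3.59 and 4.03 FPKM) and NDUFAF7 (9.75, 14.4, 11.6 and 12.2 FPKM), both for complex I, and TTC19 of complex III (20.2, 22.7, 21.7 and 22.4 FPKM) stood highest against the control with both drugs.

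Citrate cycle enzymes, including pyruvate dehydrogenase, feed the chain. Of 17 measured, 10 were at least 20% lower with GSK458 (58.8%, against 22.1% of all genes) and 0 higher (against 21.6%), with medians of 0.10, −0.35 and −0.51 for As2O3, GSK458 and both drugs. IDH2, the NADPH-forming isocitrate dehydrogenase, stood at 148, 162, 61.4 and 62.3 FPKM, and fumarase FH at 38.1, 26.8 and 21.3 FPKM in the treated libraries, with log2 differences from the control of −0.38, −0.87 and −1.19. SUCLG2, of succinyl-CoA ligase, stood at 33.2, 43.2, 24.3 and 20.95 FPKM, and its ADP-linked counterpart SUCLA2 at 26.7, 33.3, 29.1 and 31.8 FPKM. Of the import machinery, 11 of 21 genes were at least 20% lower with GSK458 (52.4%, against 22.1% of all genes). With GSK458 4 were at least 25% higher (19.0%, against 21.6%), a share near the background. With both drugs 14 were lower (66.7%, against 24.1%) and 2 higher (9.52%, against 22.2%). The medians of this list were −0.18, −0.44 and −0.37 for As2O3, GSK458 and both drugs. TOMM40, the channel of the outer membrane, stood at 57.5, 42.5, 31.3 and 31.4 FPKM, while the receptor TOMM20 stood at 74.4, 101, 131 and 108 FPKM and the small chaperone TIMM9 at 28.3, 37.3, 54.3 and 43.7 FPKM, both highest with GSK458.

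Among transcription factors and coactivators of mitochondrial genes, most differences were smaller. PPARGC1A, the coactivator PGC-1alpha, stood at 17.2, 12.7, 17.3 and 16.97 FPKM, and its relative PPRC1 at 15.2, 18.2, 11.1 and 10.9 FPKM. NRF1, which binds many promoters of respiratory genes, stood at 6.57, 6.1, 5.43 and 4.81 FPKM, and GABPA at 6.85, 6.71, 7.0 and 5.93 FPKM. Its partner GABPB1 had log2 differences from the control of 0.51, −0.63 and −0.53. ESRRA stood at 21.8, 26.6, 26.1 and 24.4 FPKM, PPARGC1B at 1.34, 0.985, 1.34 and 0.91 FPKM, and TFAM, which packages mitochondrial DNA, at 7.5, 6.41, 7.63 and 6.98 FPKM. MYC, a growth-promoting factor, stood at 45.2, 96.2, 88.4 and 56.98 FPKM and was the gene of this list farthest from the control in each single-drug library, while GABPB1, PPRC1 and NRF1 were farther from it with both drugs. Of the 13 genes, 2 were at least 20% lower with GSK458 (15.4%, against 22.1% of all genes) and 1 higher (7.69%, against 21.6%), both shares below the background. These are message levels and say nothing of the factors' activity.

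The 77 mitochondrial ribosomal protein genes had medians of −0.09, −0.33 and −0.40 with As2O3, GSK458 and both drugs, and 39 of them were at least 20% lower with GSK458 (50.6%, against 22.1% of all genes). The 81 cytosolic ribosomal protein genes had medians of 0.08, 0.54 and 0.33, and 67 of them were at least 25% higher with GSK458 (82.7%, against 21.6%). The differences between these families were not tested. Annotated respiratory transcripts are short, with a median of 712 bases over 79 members, against 1792 over the 11416 genes tested that have a length. Each gene's length is the median of its protein-coding transcripts in GENCODE. Which of these transcripts the cells express was not measured. Among other genes with transcripts of at most 1000 bases, the median was −0.06 with GSK458 and −0.08 with both drugs, against −0.42 and −0.54 for the 61 members of that length.

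**Figure D4:**
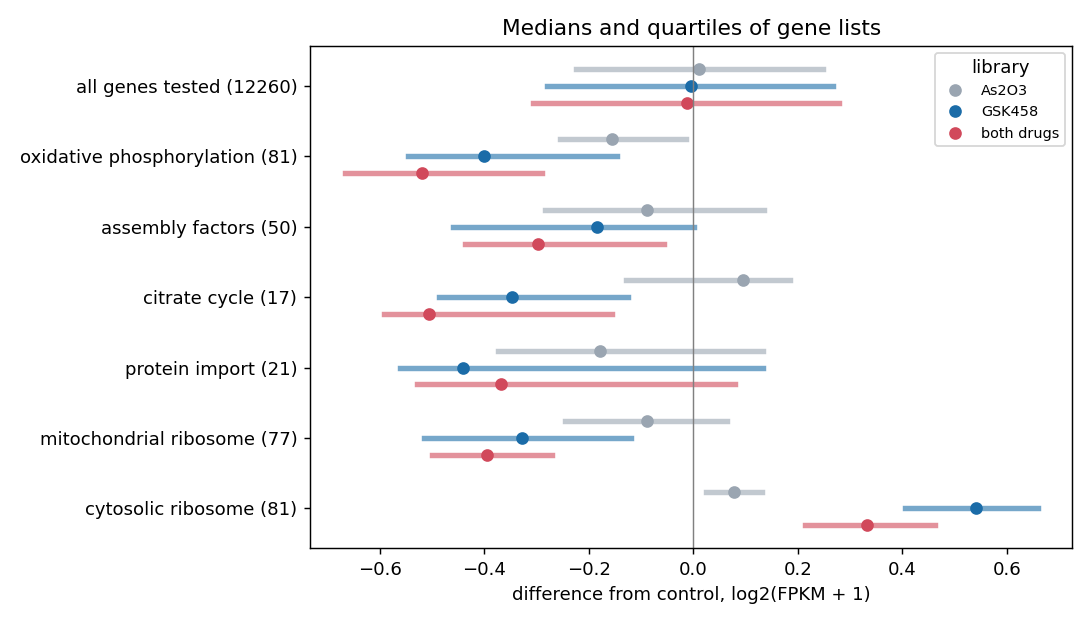
Median (point) and quartiles (bar) of the difference from the control on the log2(FPKM + 1) scale (x axis) for 7 sets of genes (y axis, number of genes in brackets), in the As2O3 (grey), GSK458 (blue) and combination (red) libraries. The oxidative phosphorylation medians were −0.40 with GSK458 and −0.52 with both drugs, and those of the cytosolic ribosome 0.54 and 0.33.

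The sequence at the promoters was compared for the 66 members found in the RefSeq promoter table (GRCh38.p14), which holds 250 bases before and 50 after each start. A core of the NRF1 site, GCGCA followed by any base and GCGC, was searched on both strands, as were all motifs below, and found in 15 of the 66 (22.7%), against 12.5% of the 9820 genes tested that have a promoter there and 6.28% of all 27305 promoters. It occurred in 4 of 7 complex III promoters and in none of 11 of complex IV. The ETS core CCGGAAG, which GABPA binds, was found in 28.8% of the members and 20.2% of genes tested (10.7% of all promoters), and AAGATGGC, a core of the YY1 site, in 18.2% and 5.79% (3.03% of all). Among 66 cytosolic ribosomal protein promoters the shares were 9.09% for NRF1, 34.8% for ETS and 10.6% for YY1. Among the 33 of complex I they were 18.2%, 15.2% and 21.2%. The oestrogen-related receptor site TCAAGGTCA was found in 1 member, SDHD (1.52%), against 0.153% of genes tested and 0.359% of all promoters. In 0 members did matches of different motifs share a base. A match is a stretch of letters and not evidence of binding. Members with and without the NRF1 letters had medians of −0.44 and −0.37 with GSK458, beside −0.05 and −0.01 over all genes tested. The upstream regions of NDUFB4 and SDHA are shown, whose promoters hold 3 and 4 NRF1 matches. They are the 250 bases before the start, at chr3:120596086-120596335 (plus strand) and chr5:218070-218319 (plus strand). The 2 and 4 matches that lie wholly before the start are in capitals, and a further match of NDUFB4 is not marked.
NDUFB4: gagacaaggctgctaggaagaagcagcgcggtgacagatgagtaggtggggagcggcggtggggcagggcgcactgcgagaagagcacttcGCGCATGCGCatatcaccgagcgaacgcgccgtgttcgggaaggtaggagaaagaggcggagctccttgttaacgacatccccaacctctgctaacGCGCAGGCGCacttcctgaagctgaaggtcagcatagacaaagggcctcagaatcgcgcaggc
SDHA: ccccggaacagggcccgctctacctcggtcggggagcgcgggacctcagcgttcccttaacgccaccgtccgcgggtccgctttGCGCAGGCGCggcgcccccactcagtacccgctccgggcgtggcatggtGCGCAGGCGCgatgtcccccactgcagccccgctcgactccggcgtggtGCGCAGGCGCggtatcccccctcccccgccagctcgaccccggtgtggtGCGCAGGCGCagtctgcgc

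Messages of ribosomal proteins start with a run of pyrimidines, C or T, and their translation is known to depend on mTOR. The longest such run on the gene's strand within 20 bases either side of the annotated start reached 8 bases in 53 of 66 cytosolic ribosomal protein promoters (80.3%), in 9 of 66 members (13.6%), in 16.3% of genes tested and in 17.3% of all promoters. Those 9 members had a median of −0.15 with GSK458 and the other 57 a median of −0.43. Over all genes tested the medians were 0.09 with the run and −0.04 without. The 9 were ATP5G2, COX7A2L, COX7C, UQCRH, COX4I1, ATP5O, ATP5J, NDUFB11 and NDUFB8, of which the first 4 were higher with GSK458, by 0.37, 0.32, 0.09 and 0.04. The other 5 were lower, with 13 bases in ATP5O (−0.26), 12 in ATP5J (−0.31) and 11 in NDUFB11 (−0.37). COX7C, among the 4 that were higher, also has 11 bases. In NDUFB11 and NDUFB8 the run ends before the annotated start, while in the rest of the 9 it includes the start base. COX4I1 stood at −0.15 and NDUFB8, with 8 bases, at −0.91. With a minimum of 10 bases, 1 of 4 members with the run was higher and 7 of 62 without it, with medians of −0.29 and −0.42. At that minimum, 518 of 807 genes tested with the run were higher, and 4200 of 9013 without it. Of the 57 members without a run of 8 bases 4 were higher, namely SDHD (0.20), NDUFA5 (0.01), NDUFA10 (0.02) and NDUFA6-AS1 (0.05). At 8 bases, 966 of 1603 genes tested with the run were higher, and 3752 of 8217 without it. The direction of UQCRH, COX7C, NDUFA5, NDUFA10 and NDUFA6-AS1 turned with libraries rescaled to a sum of 1000000. ATP5G3 and UQCRB were not found in the promoter table.

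The 40 bases around the start, 20 on either side, are shown with the longest run in capitals, first for the lowest genes with GSK458 in complexes I, III, IV and V, then for all 9 members with runs of at least 8 bases, in decreasing order of their difference with GSK458. The longest runs were 4, 4, 6 and 3 bases in the first set. The windows lie at chr19:1383887-1383926 (plus strand), chr5:132866622-132866661 (plus strand), chr11:63974600-63974639 (plus strand), chr17:48892767-48892806 (plus strand), chr12:53676064-53676103 (minus strand), chr2:42361198-42361237 (minus strand), chr5:86617921-86617960 (plus strand), chr1:46303678-46303717 (plus strand), chr16:85799675-85799714 (plus strand), chr21:33915785-33915824 (minus strand), chr21:25735035-25735074 (minus strand), chrX:47144683-47144722 (minus strand) and chr10:100529904-100529943 (minus strand), in the order printed.
NDUFS7: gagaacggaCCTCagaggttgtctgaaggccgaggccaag
UQCRQ: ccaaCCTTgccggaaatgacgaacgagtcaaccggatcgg
COX8A: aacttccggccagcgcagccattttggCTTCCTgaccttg
ATP5G1: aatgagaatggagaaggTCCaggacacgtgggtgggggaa
ATP5G2: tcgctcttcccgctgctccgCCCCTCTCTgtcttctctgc
COX7A2L: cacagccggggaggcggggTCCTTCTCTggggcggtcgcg
COX7C: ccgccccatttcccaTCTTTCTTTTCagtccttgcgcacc
UQCRH: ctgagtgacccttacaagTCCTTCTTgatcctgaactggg
COX4I1: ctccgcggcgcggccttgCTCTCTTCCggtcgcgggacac
ATP5O: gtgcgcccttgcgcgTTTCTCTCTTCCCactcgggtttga
ATP5J: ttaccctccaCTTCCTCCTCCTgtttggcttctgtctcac
NDUFB11: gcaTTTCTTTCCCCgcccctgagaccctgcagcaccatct
NDUFB8: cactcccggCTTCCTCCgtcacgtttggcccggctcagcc
The annotated starts come from RefSeq and were not measured in these cells. Whether the run has a part in the differences was not tested.

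**Figure D5:**
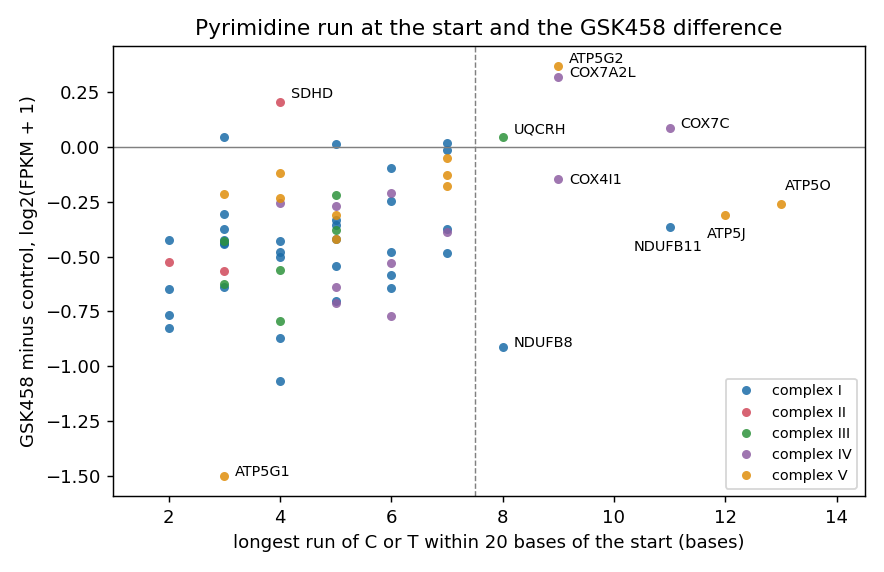
Longest run of C or T within 20 bases of the annotated start (x axis, bases) against the difference between GSK458 and control on the log2(FPKM + 1) scale (y axis) for the 66 members with a promoter, coloured by complex. The 9 genes to the right of the dashed line have runs of at least 8 bases and a median of −0.15, against −0.43 for the 57 to its left.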

How the data were processed

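The authors deposited FPKM values per gene symbol for 4 libraries. Per the submitters' processing notes, the genome build was hg19 and the tools were Cuffdiff 2.2.1, SAMtools 0.1.18, TopHat2 2.1.1 and Bowtie2 2.2.8. The annotation, strand setting and handling of reads that map to several genes were not stated there, so genes with close copies are uncertain. From the deposited FPKM, differences of log2(FPKM + 1) were computed with pandas 2.3.3 for genes averaging 1 FPKM or more. The code returned the shifts set in simulated data, which does not measure the error of single libraries. No test was possible with 1 library per group, and replicate numbers are only names. The members and lists were chosen with earlier results of these data known. Genes are named where lowest or highest in their complex, at least 1.5-fold lower or 25% higher in any comparison, above the control throughout, or as isoforms, with further members by role chosen after their values were seen. Older symbols were matched to RefSeq promoters (66 of 81) and GENCODE transcript lengths (79 of 81). Alternatives were pseudocounts of 0.1 and 5 FPKM, other filters, 3 rescalings, subunits only, means and a 1.5-fold threshold. The values of 1 member and 1 marker are not reported here.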

Additional observations from a re-analysis of the deposited data

Results flagged for a closer look

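In NDUFA7 and NDUFA6-AS1 the As2O3 difference had opposite signs without and with GSK458, each past the thresholds of 20% lower or 25% higher, and the difference was not tested. For NDUFA7, of the ubiquinone-reducing module of complex I, the log2 difference was 0.34 between As2O3 and control and −0.42 between both drugs and GSK458. For the antisense gene NDUFA6-AS1, which reached at most 4.72 FPKM, the differences were 0.39 and −0.33.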

How the results depend on the processing

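No paired analysis was possible because each group had 1 library, and for the same reason no library could be left out. Over the medians and counts of lower members, 79 alternatives stayed within 0.1 on the log2 scale or 1.5 times the count, and 11 did not; the cause was not tested. At a 1.5-fold threshold the counts of lower members were 4 under As2O3, 17 under GSK458 and 31 under both drugs against control, 15 for both drugs against As2O3 and 0 against GSK458. With libraries rescaled to a sum of 1000000, the As2O3 count was 24 in place of 14, the GSK458 median −0.52 and the count for both drugs against GSK458 3 in place of 7. On that scale 24.7% of all genes were lower with As2O3 and 5.78% with both drugs against GSK458. That last count was 4 with a pseudocount of 5 FPKM, against 2.78% of all genes. For both drugs against As2O3 the median of members was −0.26 with no filter and −0.25 with upper-quartile scaling. Under upper-quartile scaling 3 medians of that comparison changed sign, to 0.0119 for complex V, 0.0104 for the F1 head and 0.0120 for the import list. Among single genes and lists, 3650 values stayed within these limits and 227 moved. Pyrimidine runs of at least 6 and 10 bases, chosen after seeing the data, gave 25 and 4 members with medians of −0.25 and −0.29 with GSK458, against −0.43 and −0.42 without the run. Also chosen after seeing the data, subunits only with upper-quartile scaling gave −0.06 for complex V with both drugs against As2O3. Depth is unknown, so no counting error can be given, and low genes such as ATP5S and ATP5J2-PTCD1 are the least certain.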

Other observations

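The GSK458 difference with As2O3 minus that without it had a median of 0.03 over the 81 members, and no error can be given for it. It was −0.77 for NDUFA7, 0.93 for ATP5S, 0.51 for ATP5G1 and 0.48 for NDUFB2, and the median of complex II was −0.28.

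Within the import list, TOMM7, a small subunit of the outer membrane channel, stood at 106, 129.7, 161 and 129 FPKM (control, As2O3, GSK458, both drugs) and PAM16, of the import motor, at 31.99, 35.2, 42.1 and 36.2 FPKM. The mitochondrial chaperone HSPA9 stood at 111, 153, 80.5 and 79.9 FPKM, highest with As2O3 and below the control in both libraries with GSK458.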
